A study of Mus musculus with 6 samples.

Results

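The subject is the CCT chaperonin, also called TRiC, described through its 8 subunit genes Cct2, Cct3, Cct4, Cct5, Cct6a, Cct7, Cct8 and Tcp1. All probe sets that the array's annotation gives to 1 of these genes alone were taken, which gave 25 of 45037 probe sets and 8 of 18193 named genes. Per the labels, the RNA came from mouse thymocytes of the double negative stage, T cell precursors without the CD4 and CD8 coreceptors, isolated by cell sorting. Of the arrays, 3 carry RNA of Egr1/Egr3 double knockout animals and 3 of wild type animals, and the labels give 1 animal to an array. The titles name the whole thymus as the tissue, while the descriptions name sorted cells. Neither strain, age and sex nor the kind of allele is stated in the labels. The comparison asks which transcripts differ between the genotypes when the EGR1 and EGR3 transcription factors are missing.

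CCT is the cytosolic chaperonin of eukaryotes. It is built of a pair of stacked rings, and each ring holds 1 copy of each of the 8 subunits around a central chamber. Newly made actin, tubulin and several WD repeat proteins are enclosed there and released folded as the subunits hydrolyse ATP. Prefoldin hands unfolded chains to the chaperonin, and phosducin-like proteins assist it with some clients. Its amount is known to be higher in growing cells than in resting ones. The subunits carry Greek letters: Tcp1 is alpha, Cct2 beta, Cct3 gamma, Cct4 delta, Cct5 epsilon, Cct6a zeta, Cct7 eta and Cct8 theta.

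Some features of the arrays bear on all values below. Egr1, a targeted gene, had intensities of 1757, 1696 and 1221 on arrays labelled double knockout, against 508, 509 and 455 on those labelled wild type. This signal goes against the label, and where its probes lie relative to the disrupted part of the gene is not stated in the labels. In a limma fit of all 45037 probe sets, with no filter on dim values, Egr1 was called higher (log2 change 1.60, adjusted p = 0.00371). In that fit the brighter probe set of Egr3, the other targeted gene, had a change of -0.59 that did not pass (adjusted p = 0.528). All directions are therefore stated for the arrays as labelled. The brightest of 27 control probe sets for bacterial genes read between 19.0 and 29.9, and both Cd4 probe sets stayed between 3.03 and 10.1 on all 6 arrays. The brightest Cd8a probe set read 68.5 to 85.95 on the double knockout arrays and 82.9 to 197 on the wild type arrays. Cd8b1 read 65.9 to 137 on the double knockout arrays and 70.4 to 119 on the wild type arrays. Both CD8 genes thus read above these controls on every array, and neither passed. Of 9 T lineage genes 2, Ptcra and Il2ra, fell and none rose, beside 2.84% of all genes tested called lower. Ptcra read 1056 to 1469 on the double knockout arrays and 4154 to 5145 on the wild type arrays. Il2ra read 325 to 389 on the double knockout arrays and 807 to 867 on the wild type arrays. The summed intensity of the 9 was 17926 to 21021 with the double knockout label and 26179 to 34369 with the wild type label. The changes of 8 of the 9 were negative. Cd247, which did not pass, read higher on the double knockout arrays (1819 to 2003) than on the wild type arrays (736 to 1264). Of 4 tested NK cell genes 3 rose and none fell, beside 4.14% of all genes tested called higher. Nkg7 read 1243 to 2423 on the double knockout arrays and 162 to 279 on the wild type arrays. Klrd1 read 657 to 1132 on the double knockout arrays and 147 to 326 on the wild type arrays. Gzmb read 145 to 168 on the double knockout arrays and 45.5 to 47.7 on the wild type arrays. The sum over 5 NK cell genes overlapped, at 14217 to 15087 on the double knockout arrays and 11312 to 16226 on the wild type arrays, because Gzma, which did not pass, made up most of it. Of 6 tested B cell genes, Cd79b alone rose, with 1782 to 1922 on the double knockout arrays and 571 to 1081 on the wild type arrays. Wild type replicate 3 stands apart: 9 granulocyte genes summed to 314 there, against 18467 to 27636 on the double knockout arrays and 11444 and 24818 on the other wild type arrays. A set of 9 cycling genes summed to 2927 on it, against 5250 to 5844 on the double knockout arrays and 8844 and 11065 on the other wild type arrays. Erythroid genes set wild type replicates 2 and 3 apart: 4 of them summed to 308 to 399 on the double knockout arrays, and to 326, 60.7 and 3278 on wild type replicates 1, 2 and 3. A haemoglobin alpha probe set read 1177 on wild type replicate 2, against 13562 to 18849 on the other arrays. The Y-linked gene Eif2s3y read 186 to 265 on the double knockout arrays, and 476, 13.2 and 0.62 on wild type replicates 1, 2 and 3, while the brightest Xist probe set read 1439 or more on every array. Both genes thus read clearly on some arrays, and whether each array holds 1 animal is not settled. No granulocyte, erythroid or cycling gene passed the test, and what part these differences have in the results below was not tested. The 3' to 5' ratio of the actin control probe sets was 4.98 to 6.35 on the double knockout arrays. It was 8.94 on wild type replicate 1, and 5.55 and 5.64 on wild type replicates 2 and 3. The GAPDH ratio was 4.95 to 8.56 on the double knockout arrays, and 10.1, 4.83 and 7.36 on wild type replicates 1, 2 and 3. The small number of arrays, 3 for each genotype, limits precision throughout. In such samples fewer cells of a type and less RNA per cell cannot be told apart.

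All 8 subunit genes had a negative change in the arrays labelled double knockout, and 2 of them, Cct3 and Cct6a, fell past the threshold. Each gene is represented here by its brightest probe set. A change is the mean of the double knockout arrays minus the mean of the wild type arrays, on the scale of log2(intensity + 16) with arrays centred on their medians, and the test was limma's moderated test with Benjamini-Hochberg adjustment over 13187 genes at a threshold of 0.05. The changes ran from -0.92 to -0.23, with a median of -0.51, while the median of all genes tested was -0.01 and 51.0% of them had a negative change. Of all genes tested, 2.84% were called lower, 4.14% higher and 6.98% in either direction, and 20.9% had an unadjusted p under 0.05, as had 4 of the 8 subunits. A p above the threshold does not show that a gene was unchanged. On the deposited scale the groups did not overlap in 5 of the 8 subunits, with all double knockout arrays below all wild type arrays, as in 12% of all genes tested.

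Cct3, the gamma subunit, showed the most even difference. Its brightest probe set read 4716, 5565 and 5006 on the double knockout arrays, against 10538, 8640.3 and 9537 on the wild type arrays. The groups lay far apart, with means of 5096 ± 432 and 9572 ± 949 (SD, n = 3 each). The log2 change of Cct3 was -0.92, with an SE of 0.16 (limma adjusted p = 0.00758).

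Cct6a, the zeta subunit, fell by about as much but with wider spread. It read 3085, 3326 and 2581 on the double knockout arrays, against 5936, 4038 and 7237 on the wild type arrays. Wild type replicate 2 was nearest to the double knockout arrays, and the groups did not overlap. The group means were 2997 ± 380 and 5737 ± 1609 (SD, n = 3 each), a log2 change of -0.92 (SE 0.23, adjusted p = 0.0344).

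Tcp1, the alpha subunit and the founding member of the family, came next to the threshold. It read 3164, 2866 and 3466 on the double knockout arrays, against 5447, 4800.4 and 4284 on the wild type arrays. The groups did not overlap, and the log2 change of -0.63 (SE 0.19) had an adjusted p of 0.0807.

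Cct8, the theta subunit, had the largest standard error of the 8. It read 632, 405 and 679 on the double knockout arrays, against 1011, 1259 and 645 on the wild type arrays. Wild type replicate 3 lay inside the double knockout range, and the log2 change of -0.75 (SE 0.32) had an adjusted p of 0.202.

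The other 4 subunits had smaller changes. Cct5, the epsilon subunit, read 4301, 4763 and 3949.6 on the double knockout arrays, against 4895, 4795 and 7595 on the wild type arrays. Only wild type replicate 3 was clearly higher, and the groups were separated by the small gap between double knockout replicate 2 and wild type replicate 2 (log2 change -0.40, SE 0.21, adjusted p = 0.328). Cct4, the delta subunit, read 5163, 6246 and 5758 on the double knockout arrays, against 6979, 6555 and 7480.3 on the wild type arrays. These groups were close together but did not overlap (log2 change -0.31, SE 0.17, adjusted p = 0.325).

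Cct7, the eta subunit, read 9299, 11747 and 6723 on the double knockout arrays, against 9477, 8682 and 14927 on the wild type arrays. The groups overlapped, with double knockout replicate 2 above wild type replicates 1 and 2 (log2 change -0.26, SE 0.24, adjusted p = 0.602). Cct2, the beta subunit, read 6686, 6874 and 6090.4 on the double knockout arrays, against 7703, 6828 and 8304 on the wild type arrays. Its groups overlapped by a narrow margin on the deposited scale, and it had the smallest change of the 8 (-0.23, SE 0.16, adjusted p = 0.484).

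**Figure D1:**
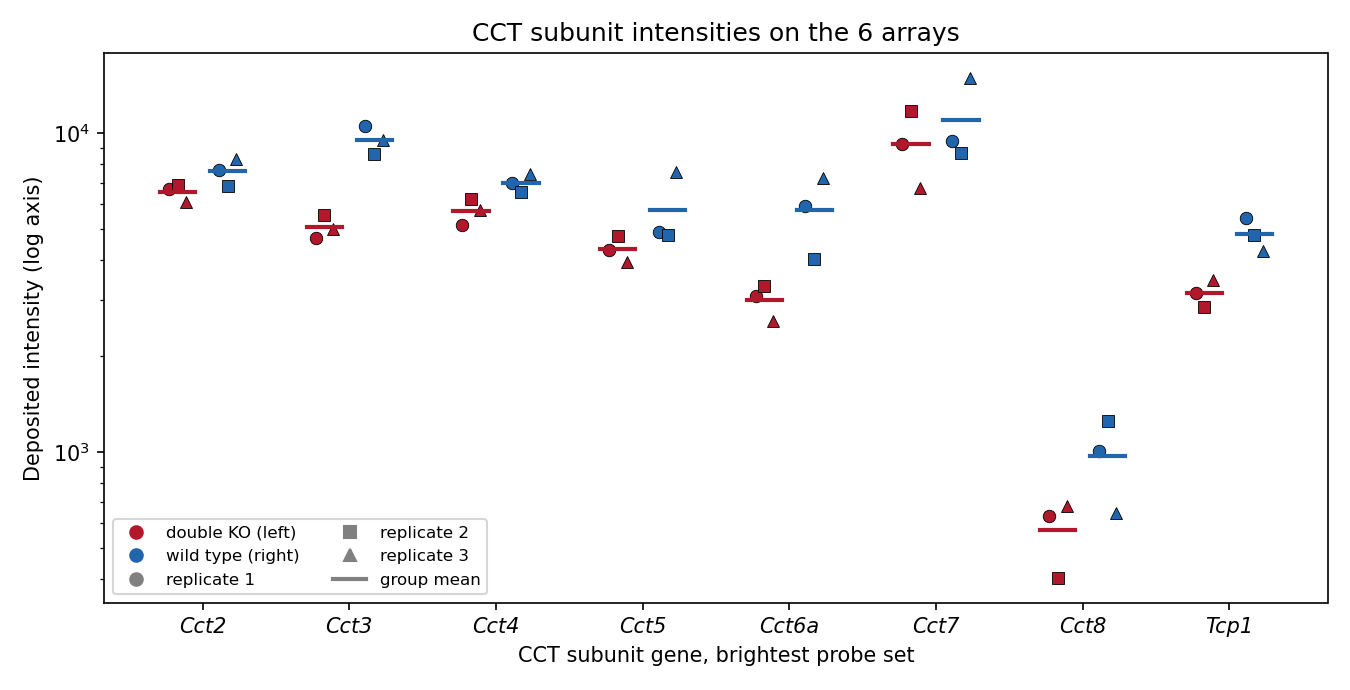
Deposited intensity (log axis) of the brightest probe set of each of the 8 CCT subunit genes, with double knockout arrays at the left in red and wild type arrays at the right in blue; symbols mark replicates and bars the group means (n = 3 each). The 3 double knockout points of Cct3, between 4716 and 5565, lie far below its wild type points, while those of Cct7 and Cct2 overlap the wild type points.

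The 2 calls depended on the arrays used. Without double knockout replicate 1 neither Cct3 (log2 change -0.89, adjusted p = 0.0699) nor Cct6a (-0.96, adjusted p = 0.127) passed, and Cct6a was also lost without double knockout replicate 2 (adjusted p = 0.077), double knockout replicate 3 (0.126) or wild type replicate 1 (0.106). With wild type replicate 3 left out, 4 subunits were called lower: Cct3 (-0.93), Cct6a (-0.74), Cct8 (-1.02, adjusted p = 0.029) and Tcp1 (-0.72, adjusted p = 0.0222), while 7.22% of all genes tested were called lower. On the same arrays Cct7 had a change of -0.04 and Cct5 of -0.19. Without wild type replicate 2, the other array set apart by erythroid genes, Cct3 (-0.96, adjusted p = 0.0248) and Cct6a (-1.12, adjusted p = 0.028) were called. In that fit 1.15% of all genes tested were called lower. Through all 6 omissions each of the 8 changes kept a negative sign, with Cct3 between -0.97 and -0.87.

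**Figure D2:**
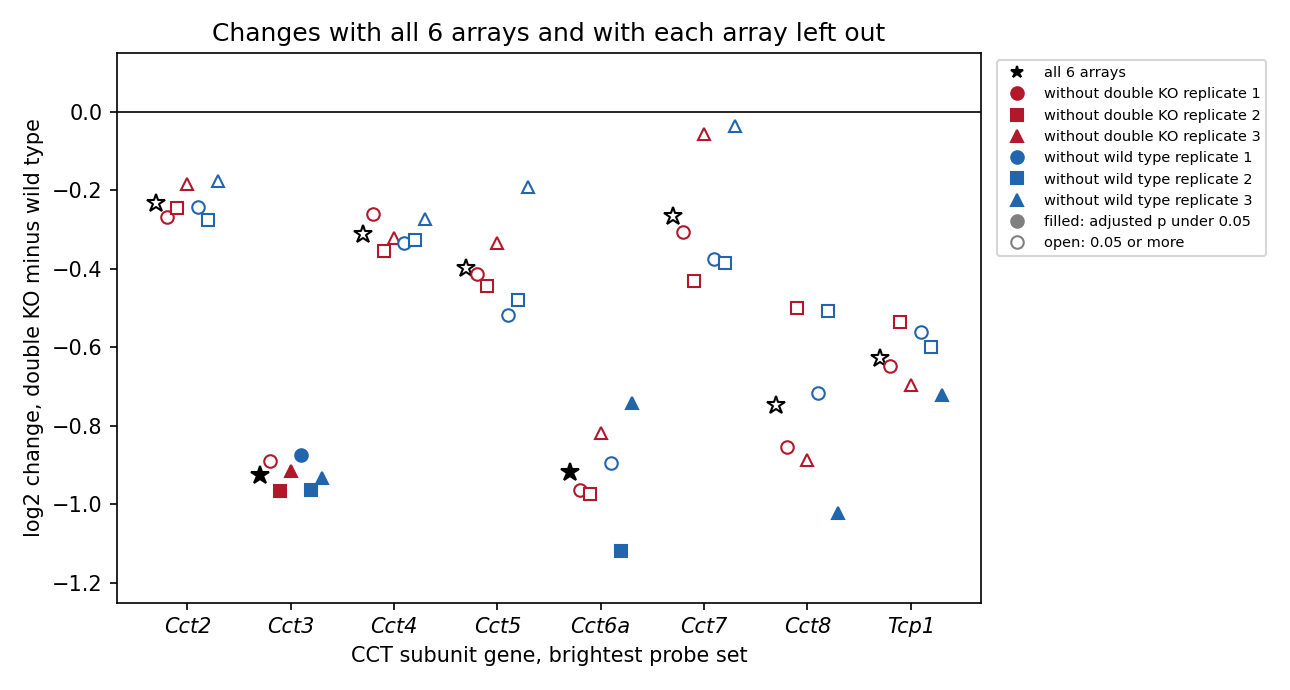
Log2 change of each CCT subunit (double knockout minus wild type) with all 6 arrays (star) and with each array left out in turn (red for a double knockout array, blue for a wild type array; filled where the adjusted p was under 0.05). Cct3 stays between -0.97 and -0.87, whereas Cct7 and Cct5 approach 0 without wild type replicate 3.

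The probe sets of a subunit were then compared with each other. Of the 8 subunits, 6 have more than 1 probe set, and 21 of the 25 probe sets passed the filter on dim values. The 4 that did not were 2 of Cct3 and 1 each of Cct4 and Cct8, all under the brightest bacterial control on at least 4 arrays. In the fit across 27022 probe sets, 5 of the 21 CCT probe sets were called lower, against 2.11% of all probe sets tested. In 10 of the 21 all double knockout arrays lay below all wild type arrays, as in 11% of all probe sets tested. The 21 changes were all negative, from -1.07 to -0.05, with a median of -0.57, beside a median of 0.00 over all probe sets tested. Probe sets of a gene read the same RNA and are not replicates.

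For Cct6a both probe sets gave nearly the same answer. Beside the change of -0.92 of the brighter one, its second probe set, 1423517_at, read 1551, 1770 and 1454 on the double knockout arrays, against 2867, 2291 and 3712 on the wild type arrays. The groups did not overlap there either (log2 change -0.88, SE 0.23, adjusted p = 0.0456).

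The bright Cct3 probe sets also pointed the same way. Probe set 1459987_s_at read 4618, 6159 and 3458 on the double knockout arrays, against 8194, 7993 and 12045 on the wild type arrays, a log2 change of -1.02 (SE 0.24, adjusted p = 0.0318). Probe set 1416024_x_at had a change of -0.64 (SE 0.20, adjusted p = 0.0978), again with no overlap between the groups. The dimmer 1426067_x_at and 1449645_s_at gave -0.44 (SE 0.25) and -0.75 (SE 0.41), overlapped and did not pass. When the probe sets of a gene were averaged, Cct3 had a change of -0.75 and an adjusted p of 0.0764.

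Cct4 was the subunit whose probe sets differed most. Of its tested probe sets, 1433447_x_at, 1438560_x_at, 1415867_at and 1456082_x_at, had changes of -0.31, -0.40, -0.14 and -0.16, and none of these passed. The dim probe set 1430034_at, in contrast, read 22.8, 40.55 and 39.0 on the double knockout arrays, against 114, 71.5 and 78.7 on the wild type arrays. It passed with a change of -1.07 (SE 0.26, adjusted p = 0.0343), although on double knockout replicate 1 it was close to the brightest bacterial control (22.8 against 19.0). Another dim one, 1456572_x_at, had a change of -0.75 (SE 0.43) and overlapped. Which part of the transcript each of them covers is not stated in the files.

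The Cct2 probe sets had changes of -0.23, -0.05 and -0.25, none of which passed. Probe set 1416037_a_at illustrates the scatter, with 5324, 6004 and 3777 on the double knockout arrays and 4141, 4238 and 7346 on the wild type arrays. Without wild type replicate 3 its change was 0.21, the highest of the tested CCT probe sets in that fit. The second Cct7 probe set, 1415817_s_at, had a change of -0.57 (SE 0.24, adjusted p = 0.223), larger than that of the brighter one. Cct5 and Tcp1 have 1 probe set each, and Cct8 has 1 above the filter, so no agreement could be examined for them.

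**Figure D3:**
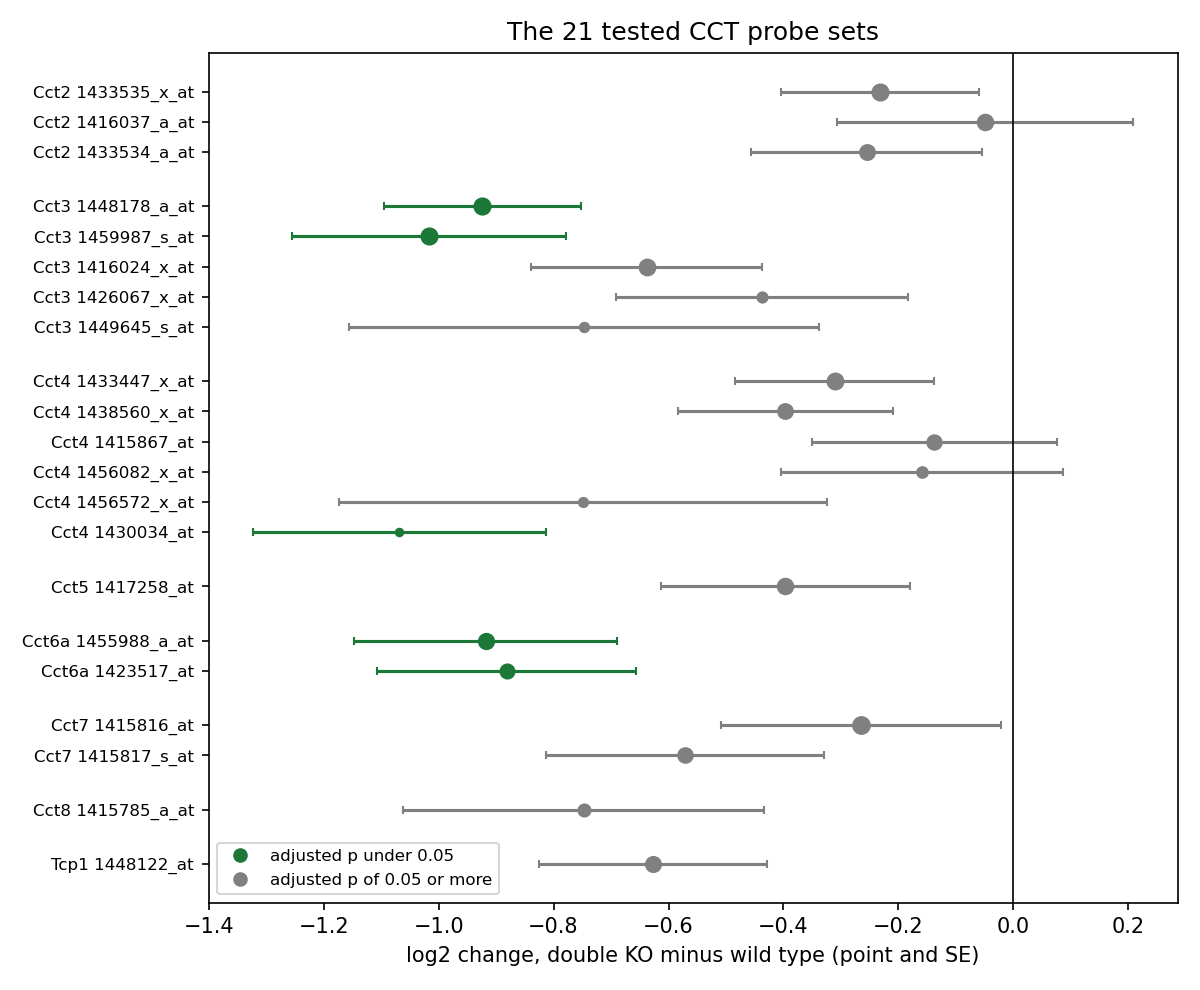
Log2 change (double knockout minus wild type, point and SE) of the 21 tested CCT probe sets, grouped by subunit with the brightest first; larger points are brighter, and green marks an adjusted p under 0.05. The 5 green points belong to Cct3, Cct6a and a dim Cct4 probe set, and no point lies above 0.

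The array's suffixes mark probe sets that may read more than their own transcript (x and s). This matters for CCT genes because the RefSeq gene table lists 16 pseudogenes of the subunits, among them 5 for Cct7, 3 each for Cct3 and Cct6a, 2 each for Cct8 and Tcp1, and 1 for Cct4. Whether any probe set reads them was not tested. With x and s probe sets left out, Cct3 and Cct6a kept the same probe sets, so their repeated calls do not bear on this question. Cct2 and Cct4 were then represented by other probe sets, with changes of -0.05 and -0.14 that did not pass.

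The array that read highest differed between subunits. Of the 21 tested CCT probe sets, 14 were highest on wild type replicate 3, 6 on wild type replicate 1 and 1 on wild type replicate 2, and none was highest on a double knockout array. Averaged over the 8 subunits, the centred log2 values were -0.23, -0.27 and -0.33 on double knockout replicates 1, 2 and 3, and 0.25, 0.22 and 0.36 on wild type replicates 1, 2 and 3. The mean therefore differed little between arrays of a group, while single subunits moved in opposite directions. On wild type replicate 3 the centred value of Cct6a was 0.81, of Cct5 0.61 and of Cct7 0.59, while Cct8 stood at -0.17. On double knockout replicate 2, Cct8 was at -0.87 and Cct7 at 0.20.

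**Figure D4:**
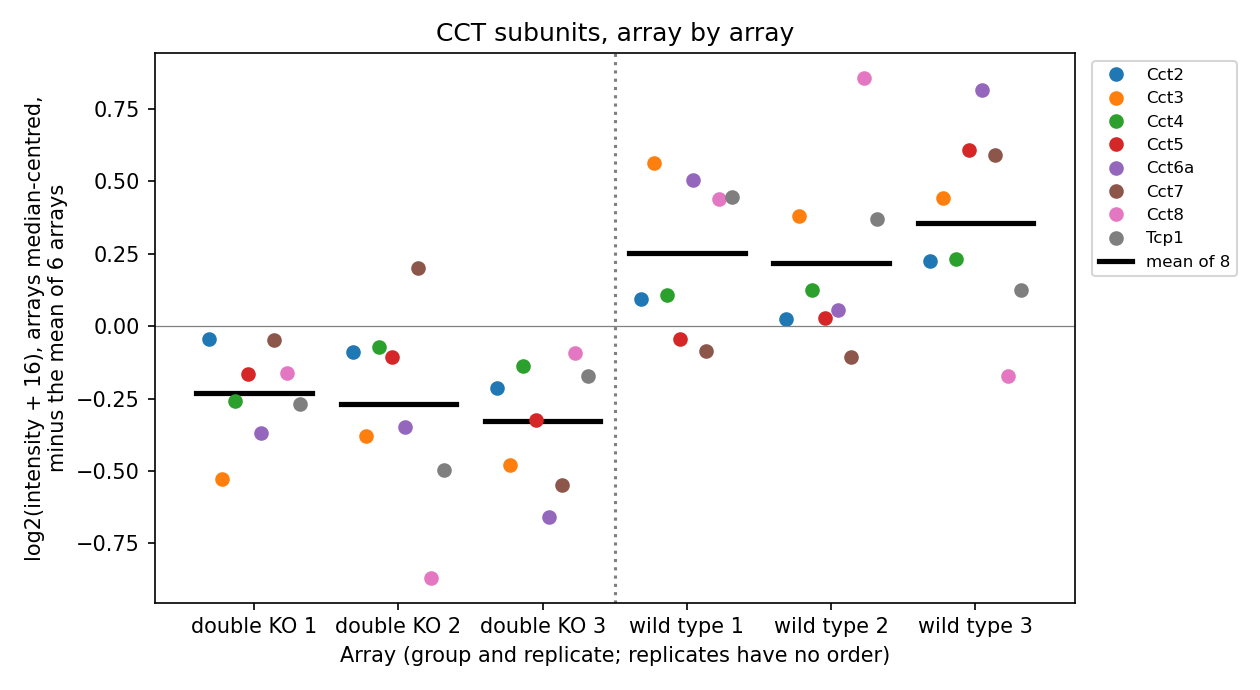
Centred log2 value of each CCT subunit (its deviation from its own mean over the 6 arrays) on the double knockout arrays at the left and the wild type arrays at the right; black bars are the mean of the 8 subunits. The bars lie between -0.33 and -0.23 on the double knockout arrays and between 0.22 and 0.36 on the wild type arrays, while Cct7 and Cct8 scatter most.

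Whether subunits changed unequally was examined through the difference of the log2 values of a pair of subunits within each array. Of 28 pairs, 6 had differences that did not overlap between the groups. They set Cct3 against Cct2 and Cct4, and Cct6a against Cct2, Cct4, Cct5 and Cct7. All 6 thus contain Cct3 or Cct6a, the subunits already called lower on the same arrays. The pairs are independent neither of each other nor of those calls. The share of separate pairs among other genes was not computed, so the count of 6 alone does not show unequal change. For Cct2 against Cct3 the changes differed by 0.69, and for Cct2 against Cct6a by 0.69. Cct3 minus Cct4, centred on its own mean, was -0.27, -0.31 and -0.34 on the double knockout arrays, against 0.45, 0.26 and 0.21 on the wild type arrays, a gap wider than the spread within either group. A two-sided exact permutation test over the 20 splits of the 6 arrays cannot give a p below 0.1, which these 6 pairs reached (0.467 after adjustment over 28 pairs). With 3 arrays in a group it could not pass the threshold for any pair, so it does not decide for or against unequal change. The changes of Cct3 and Cct6a differed by -0.01 (exact p = 1).

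Among the other genes, 5 were named for the profile most like the mean of the 8 subunits, measured as the root mean square difference of centred log2 values over the 6 arrays. They were Mtrex, a helicase of the nuclear RNA exosome (0.04), the small GTPase gene Arl3 (0.05), the carboxylase subunit gene Mccc1 (0.05), Sdhb, the iron-sulfur subunit of succinate dehydrogenase (0.05), and Pisd, a phospholipid decarboxylase of mitochondria (0.05). For the subunits themselves this difference ran from 0.14 for Cct4 to 0.44 for Cct8. Sdhb, for example, read 4652, 4545 and 4661 on the double knockout arrays, against 6546, 6176 and 7397 on the wild type arrays. None of the 5 genes passed the test, with changes between -0.62 and -0.52.

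The promoters were examined because the subunits had changes of the same sign. The 8 genes lie on 8 different chromosomes. RefSeq promoter windows of the mouse build GRCm38.p6 were matched for 7 of the 8 subunits (not Cct4), and the 250 bases before the start of transcription were searched on both strands. The windows of the subunits that fell, Cct3 (chr3:88296885-88297134, plus strand) and Cct6a (chr5:129787106-129787355, plus strand), are printed beside those of the subunits with the smallest changes, Cct7 (chr6:85451255-85451504, plus strand) and Cct2 (chr10:117063853-117064102, minus strand). Capitals mark matches of the searched motifs on either strand.
Cct3: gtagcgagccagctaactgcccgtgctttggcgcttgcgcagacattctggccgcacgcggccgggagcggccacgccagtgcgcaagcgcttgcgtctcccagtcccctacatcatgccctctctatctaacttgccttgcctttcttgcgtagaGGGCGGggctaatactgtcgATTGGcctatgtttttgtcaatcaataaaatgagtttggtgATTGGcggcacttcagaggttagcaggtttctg
Cct6a: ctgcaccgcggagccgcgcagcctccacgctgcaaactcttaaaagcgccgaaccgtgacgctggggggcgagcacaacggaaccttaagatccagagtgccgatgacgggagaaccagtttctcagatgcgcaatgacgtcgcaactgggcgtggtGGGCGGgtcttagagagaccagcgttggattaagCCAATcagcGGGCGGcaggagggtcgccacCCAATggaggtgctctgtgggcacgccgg
Cct7: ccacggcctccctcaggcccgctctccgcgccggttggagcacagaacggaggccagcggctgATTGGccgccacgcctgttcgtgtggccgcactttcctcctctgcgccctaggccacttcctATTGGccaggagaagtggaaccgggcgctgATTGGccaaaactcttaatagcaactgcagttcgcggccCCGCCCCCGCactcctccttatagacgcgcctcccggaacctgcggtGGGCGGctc
Cct2: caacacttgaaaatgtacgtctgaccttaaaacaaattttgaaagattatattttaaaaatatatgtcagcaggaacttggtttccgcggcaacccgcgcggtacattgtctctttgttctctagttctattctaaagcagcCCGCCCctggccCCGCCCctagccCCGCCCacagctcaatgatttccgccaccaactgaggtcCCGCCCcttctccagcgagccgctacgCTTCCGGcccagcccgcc

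The SP1 GC box (GGGCGG) was found in all 7 windows, with 4 matches in Cct2, and in 32.7% of the 32851 windows of all genes. The share of G and C bases ran from 45.2% in the Cct5 window to 66.4% in the Cct7 window, beside a median of 52.4% over all windows. What part base composition has in these matches was not tested. The CCAAT box (CCAAT) was in the windows of Cct3, Cct6a, Cct7 and Tcp1, 4 of 7, and in 33.8% of all windows. An EGR motif (GCGNGGGCG) was in the Cct7 window alone, where it overlaps a GC box, and in 4.7% of all windows. The MYC E-box (CACGTG) was in none of the 7 windows and in 6.0% of all windows. Of the heat shock motifs, GAANNTTC was in none of the 7 (6.7% of all windows) and TTCNNGAA in Cct5 alone (7.2%), and the ETS motif (CCGGAAG) was in Cct2 and Cct8 (6.9%). These matches are descriptions of letters in a window, and binding was not measured.

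Of the 7 subunits with a promoter window, 6 share their start region with a gene on the opposite strand whose start lies within 500 bases, compared with 13.4% of 27025 genes. The neighbours are Tsacc beside Cct3, Atpsckmt beside Cct5, Psph beside Cct6a, Pradc1 beside Cct7, the long noncoding RNA B130034C11Rik beside Cct8 and Mrpl18 beside Tcp1, at distances of 103 to 270.0 bases, and none of them passed the test. Psph, the last enzyme of serine synthesis, starts 103 bases from Cct6a. It read 222, 281 and 282 on the double knockout arrays, against 113, 239 and 302 on the wild type arrays (log2 change 0.32, SE 0.33), while Cct6a fell. Tsacc had a change of -0.70 (SE 0.28, adjusted p = 0.183) beside Cct3, and Mrpl18, a mitochondrial ribosomal protein gene, a change of -0.03 (SE 0.25) beside Tcp1.

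Among the genes that work with the chaperonin, 1 of 6 prefoldin genes fell and none rose, beside the 2.84% of all genes tested called lower. Pfdn4, a prefoldin subunit, read 170, 181 and 227 on the double knockout arrays, against 629, 393 and 458 on the wild type arrays. The groups did not overlap, and its log2 change was -1.29 (SE 0.25, adjusted p = 0.0117), a call lost without double knockout replicate 1 (adjusted p = 0.0863) or double knockout replicate 2 (0.0514). The other prefoldin subunits had changes on both sides of 0, from -0.30 for Pfdn6 to 0.60 for Pfdn5, and the median of the list was -0.12.

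None of 7 genes of the prefoldin-like and R2TP assembly machinery passed in limma, although 4 had an unadjusted p under 0.05, beside 20.9% of all genes tested (median -0.52). These 4 did not share a direction: Ruvbl1, Ruvbl2 and Rpap3 had negative changes, and Pih1d1 a change of 0.58 (SE 0.26). The brightest members of the list, Pdrg1 and the AAA ATPase gene Ruvbl1, had changes of 0.10 (SE 0.23) and -0.74 (SE 0.30). Ruvbl2, the partner ATPase of Ruvbl1, read 153, 100.2 and 269 on the double knockout arrays, against 531, 524 and 269 on the wild type arrays (log2 change -1.32, SE 0.37, adjusted p = 0.0594), with wild type replicate 3 inside the double knockout range. Of the phosducin-like and thioredoxin-like cofactors, 3 of 5 were tested and none passed, nor had an unadjusted p under 0.05 (0 genes). Pdcl, Pdcl3 and Txndc9 had changes of 0.14, 0.09 and 0.08.

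The main clients of the chaperonin gave no call in either direction. None of 13 tested actin and tubulin genes passed, 3 had an unadjusted p under 0.05, a share near the 20.9% of all genes tested, and their median was 0.20, above 0, where that of the subunits was -0.51. Actb, beta actin, read 9945, 11940 and 8879 on the double knockout arrays, against 5071, 8417 and 9333 on the wild type arrays (log2 change 0.45, SE 0.24, adjusted p = 0.329). The second, dimmer Actb probe set had a change in the other direction, -0.58 (SE 0.40), and did not pass either. Actg1, gamma actin, had a change of 0.34 (SE 0.18), Tuba4a, an alpha tubulin, of -0.36 (SE 0.19), and Tubb2b, a beta tubulin, of 1.09 (SE 0.31, adjusted p = 0.0579). None of 6 tubulin cofactor genes (median 0.06) and none of 15 other clients (median 0.11) passed, and 0 of either list had an unadjusted p under 0.05. The brightest tubulin cofactor genes, Tbca and Tbcb, had changes of -0.13 (SE 0.17) and -0.10 (SE 0.21). Among the other clients, Bub3 and Cdc20, WD repeat proteins of the mitotic checkpoint and of the anaphase-promoting complex, had changes of 0.00 (SE 0.19) and -0.21 (SE 0.20).

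The relatives of CCT in sequence or design were dim or did not pass. Cct6b, a zeta subunit isoform known from testis, stayed between 1.36 and 12.6 on all arrays, under the bacterial controls. Hspd1, the mitochondrial chaperonin HSP60, read 3448, 4703 and 1863 on the double knockout arrays, against 5615, 5999 and 11465 on the wild type arrays. The groups did not overlap, yet the spread was wide (log2 change -1.24, SE 0.345, adjusted p = 0.0558). Its cochaperonin Hspe1 had a change of -0.50 (SE 0.27), and the median of the 5 tested relatives was -0.50, with 2 at an unadjusted p under 0.05, beside 20.9% of all genes tested.

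Of 13 tested cytosolic chaperones that act beside CCT, 2 fell and none rose (median -0.47), where 2.84% of all genes tested were called lower. Hsph1, a nucleotide exchange factor of HSP70, read 486, 476 and 464 on the double knockout arrays, against 2372, 3181 and 1185 on the wild type arrays, a log2 change of -2.11 (SE 0.34, adjusted p = 0.00424). Hsp90aa1, the inducible cytosolic HSP90, read 1493, 1405 and 1903 on the double knockout arrays, against 5951, 4713 and 3145 on the wild type arrays, with means of 1600.05 ± 266 and 4603 ± 1407 (SD, n = 3 each, limma adjusted p = 0.00682). Both calls held with each array left out in turn. Hspa8, the constitutive HSP70, had a change of -0.02 (SE 0.14), Dnajc7, an HSP40 with tetratricopeptide repeats, of 0.46 (SE 0.28), and Dnajb1, a heat-inducible HSP40, of 0.80 (SE 0.27, adjusted p = 0.106). Of 6 tested genes for transcription factors (Hsf2, Myc, Max, Mycn, Srf and Sp1), a list without the EGR genes, Myc alone passed, with a log2 change of -1.86 (SE 0.25, adjusted p = 0.00146). It read 278, 230.2 and 299 on the double knockout arrays, against 1100.2, 1121 and 807.5 on the wild type arrays. Sp1 and Srf had changes of -0.15 (SE 0.35) and -0.34 (SE 0.26).

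**Figure D5:**
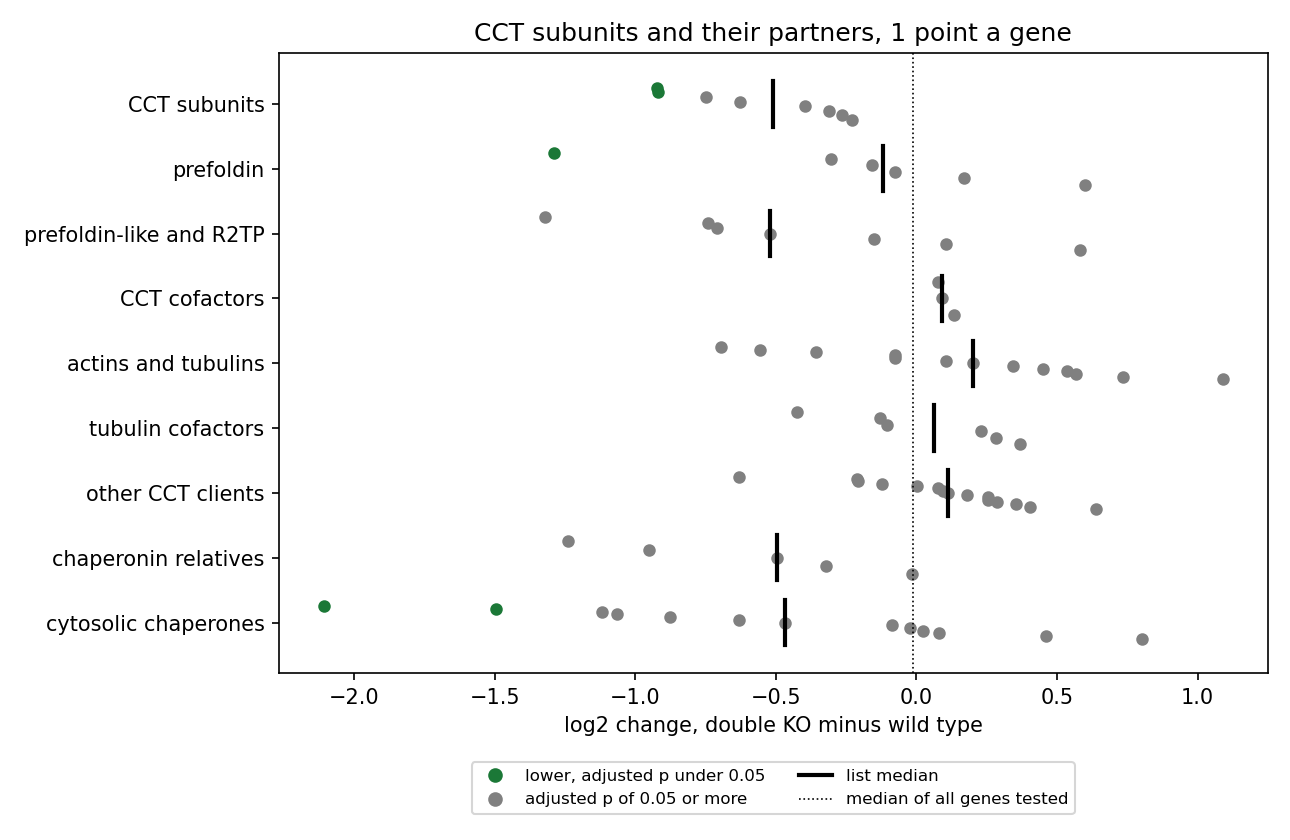
Log2 change (double knockout minus wild type) of the 8 CCT subunits and of their partner lists, 1 point a gene; black bars are list medians, the dotted line is the median of all genes tested, and green marks genes called lower. All 8 subunit points lie below 0, while actins, tubulins and other clients have medians of 0.20 and 0.11 and no call.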

How the data were processed

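Expression was measured on 6 single-colour arrays. The deposited values are linear intensities. The deposited intensity values have the same trimmed mean, 150.0, on every array. No label or header names the software. After 64 control probe sets were left out, 45037 of 45101 remained, of which 34945 have 1 gene symbol, 932 several and 9160 none here. Of the first, 34741 matched the RefSeq table of GRCm38.p6 and took its symbols.

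An offset of 16 was added, log2 taken and each array centred on its median, because the medians differed by 0.126. A probe set was tested if its mean log2 value reached the 40th percentile, which equals an intensity of 13.2. The model was fitted with limma 3.58.1 (R 4.3.3), with variances moderated along intensity, to 27022 probe sets, and to 13187 genes with the brightest probe set of each, with Benjamini-Hochberg adjustment at 0.05 over all of them. p-values measure the spread between these arrays.

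The members and gene lists were chosen with earlier results of these data known. Genes named are the 8 subunits, the genes of each list past the threshold with 1 or 2 of the brightest others, and the 5 genes of most similar profile. Ruvbl2, Actb, Tubb2b, Dnajb1, Pdcl, Cct6b, Tsacc, Psph and Mrpl18 were named after their values were seen. Alternatives changed the scaling (none, or quantile), the offset (1 or 64), the filter (none, or the 60th percentile), the variance model (without trend, with array weights, or blocked by replicate), the arrays (each omitted once) and the choice of probe set (2 other rules). The labels do not state that replicate numbers pair animals. Hsp90ab1, Hsf1, Tuba1b, Tuba1c and Pdcd5 were not analysed here.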

Additional observations from a re-analysis of the deposited data

How the results depend on the processing

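All 136 changes of the 8 subunits under 17 alternatives were negative. Of these, 123 stayed on the same side of the threshold as reported, 9 were weaker and 4 stronger. The filter, trend and block settings leave each estimate as it was, so their signs repeat the main fit. The probe set rules also repeat it where a subunit keeps its probe set. Among single probe sets, 1416037_a_at of Cct2 (0.21) and 1415867_at of Cct4 (0.015) had positive changes without wild type replicate 3. The count of 2 subunits called lower became 1 with no filter, without the intensity trend, with the replicate number as a block (Cct3 in each) and with the mean of a gene's probe sets (Cct6a), 4 with array weights, and between 0 and 4 with 1 array left out. The share of all genes tested called lower moved as well, from 2.84% in the main fit to 10.8% with array weights. With 1 array left out it was between 0.705% and 7.22%. Of the CCT probe sets, 5 were called lower, but 3 with values as deposited, 1 with no filter, 2 without the intensity trend, 0 with the block, and between 0 and 7 with 1 array left out. Where limma gave 0, unadjusted p was under 0.05 for 7 probe sets with the block. Without double knockout replicate 1 it was under 0.05 for 4 subunits and 8 probe sets. The shares of all genes and probe sets with such a p in those fits were not computed, nor were the shares of all probe sets called lower under the alternatives. In the main fit 20.9% of all genes tested had such a p, so these counts alone do not show an excess. The median change of -0.51 was -0.41 with quantile normalization and between -0.54 and -0.47 with 1 array left out. Of the partner genes 4 were called, against 7 with quantile normalization, 20 with array weights, and between 3 and 12 with 1 array left out; Pfdn4 was lost with the block (adjusted p = 0.0623). Over the array 920 genes were called, against 2909 with array weights, 369 with the block, and between 279 and 1903 with 1 array left out. Same-numbered arrays did not deviate together (correlations of -0.05, -0.13 and -0.29). No pairing by number was seen, but 3 arrays in a group are too few to exclude a shared batch. Where no value is given for a cause, the cause was not tested. Signal near the bacterial controls limits the 4 dim CCT probe sets and the Cct4 probe set 1430034_at.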
